A study of Drosophila melanogaster with 3 samples.

Results

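Of the 3515 peaks in the conservative across-replicate list for the CG14050-eGFP fusion protein, 2811 lay on autosomes, and 847 of those had their summit within 500 bp of transcription start sites (TSSs) of protein-coding genes on one strand only. These 847 peaks, called members from here on, are described here. They were chosen by summit position against the Ensembl transcripts, among peaks that had already passed the authors' reproducibility threshold, which depends on signal and on recurrence between the lists it compared. The side of the start and the sequence under the summit were not part of the rule. Another 499 autosomal peaks had coding starts on both strands within that distance and are called divergent promoter peaks, and 199 peaks on the X chromosome met the same one-strand condition. The name "single-gene" held for 817 of the 847 peaks (96.5%), while 29 had 2 coding genes of the same strand within reach and 1 had 3.

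The material was whole Drosophila melanogaster embryos aged 0 to 24 h, so every embryonic tissue and stage was mixed in each sample. All samples came from 1 transgenic line that carries CG14050 fused to enhanced green fluorescent protein (eGFP), and the precipitation was made through the tag with an antibody against GFP. Which promoter drives the transgene was not given in the sources used here. There were 3 biological replicates of this 1 group, no second condition, and no control library was analysed here, so every comparison is between regions of the genome or between replicates.

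A promoter is the stretch of DNA around a TSS where RNA polymerase II and its basal factors assemble. In Drosophila, active promoters usually have a nucleosome-depleted stretch just upstream of the start, and short sequence words mark different promoter classes: the TATA box and the initiator at many regulated genes, and the DNA replication-related element (DRE) and Motif 1 at many genes that are active in most cells. A promoter with genes of one strand has a defined upstream and downstream side, which a divergent promoter does not.

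A few strong peaks are shown first, as examples of where a summit can lie and what bases it can lie on. Each stretch runs from 100 bases before to 100 bases after the summit, is written 5′ to 3′ in the direction of the gene, and comes from the RefSeq dm6 genome. Capitals mark runs of at least 6 bases made of A and T alone. The first 2 are strong members on arms 2L, 3L, 3R and 4 that were found in all 3 replicates and had an upstream summit: CG14100 (chr3L:19590512-19590712, minus strand, summit 88 bp upstream) and CG18549 (chr3R:12449063-12449263, plus strand, summit 133 bp upstream).
CG14100: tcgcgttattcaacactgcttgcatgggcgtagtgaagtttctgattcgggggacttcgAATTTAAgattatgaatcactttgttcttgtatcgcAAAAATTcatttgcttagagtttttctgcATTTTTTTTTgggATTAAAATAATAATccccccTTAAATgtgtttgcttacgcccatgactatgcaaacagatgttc
CG18549: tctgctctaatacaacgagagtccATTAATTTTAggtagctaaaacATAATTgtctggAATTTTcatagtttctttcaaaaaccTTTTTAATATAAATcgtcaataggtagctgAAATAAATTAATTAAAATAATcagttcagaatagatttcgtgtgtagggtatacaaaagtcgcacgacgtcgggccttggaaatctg

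The next 3 are the strongest such peaks with a downstream summit: PNPase (chr3R:31404562-31404762, minus strand, summit 78 bp downstream), CG9399 (chr3R:9574054-9574254, minus strand, summit 57 bp downstream) and CG31612 (chr2L:21794854-21795054, minus strand, summit 493 bp downstream).
PNPase: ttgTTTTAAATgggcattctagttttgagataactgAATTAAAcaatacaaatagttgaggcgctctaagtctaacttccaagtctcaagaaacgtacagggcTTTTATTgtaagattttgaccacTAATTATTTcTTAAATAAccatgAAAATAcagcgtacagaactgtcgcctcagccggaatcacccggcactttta
CG9399: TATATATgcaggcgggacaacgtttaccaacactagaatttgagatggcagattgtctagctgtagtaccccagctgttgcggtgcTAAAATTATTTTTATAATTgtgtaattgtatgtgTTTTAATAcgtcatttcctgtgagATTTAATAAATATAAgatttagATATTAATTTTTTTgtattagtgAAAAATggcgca
CG31612: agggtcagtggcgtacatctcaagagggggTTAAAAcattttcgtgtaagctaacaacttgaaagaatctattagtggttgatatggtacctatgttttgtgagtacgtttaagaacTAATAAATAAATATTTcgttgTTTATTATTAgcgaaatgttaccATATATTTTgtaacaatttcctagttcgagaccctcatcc
Runs of A and T covered 44 and 57 of the bases in the upstream examples and 45, 69 and 41 in the downstream examples. Within 50 bp of the summit, G and C made up 26.7% and 22.8% in the upstream examples and 33.7%, 32.7% and 27.7% in the downstream ones. The averages were 33.2% over upstream and 42.5% over downstream members, so each example was below the average of its side. The downstream side needs care for PNPase and CG9399, since both summits lay between annotated starts of the gene: downstream of the nearest start and upstream of, or level with, another.

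Most summits lay upstream of the start. Upstream of the nearest TSS were 696 of 847 summits (82.2%, 95% exact interval 79.4 to 84.7), downstream were 149, and 2 were at the start itself. Intervals of this kind cover counting error only. The median offset was -143 bp (negative is upstream), with quartiles of -248.5 and -50 bp. Taking all starts within 500 bp together, 649 summits were upstream of every one, 121 were downstream of every one and 77 were at or between starts.

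The authors' ranked list behind these peaks held 7137 autosomal regions at promoters of one strand, of which 847 had passed into the conservative list (11.9%) and 6290 had not. Those 6290 regions were found in the same libraries and classed by the same rule, and serve as the background. Their summits were upstream in 42.7% (interval 41.5 to 44.0) with a median offset of 52 bp downstream. Regions with an upstream summit passed in 20.6% of cases (696 of 3383), and those with a downstream summit in 3.98% (149 of 3743). Only 23 of the regions that did not pass overlapped a conservative peak, and the upstream share of the others was 42.6%.

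In steps of 50 bp, the most peaks lay 150 to 100 bp upstream (117), and the stretch from 250 to 50 bp upstream held 426 peaks (50.3%) but 18.9% of the regions that had not passed. The passing share was highest 200 to 150 bp upstream, at 30.6%. The 111 peaks there also had the highest median signal of any step (212, against 139 over all members) and recurred in all 3 replicates most often (68.5%). Past the start the passing share was 8.11% in the first 50 bp and lowest, at 0.647%, 250 to 300 bp downstream, where only 2 peaks lay. Farther downstream it was higher again, at 2.69% from 300 to 350 bp and 5.48% from 400 to 450 bp. Several steps beyond 100 bp downstream hold under 20 peaks each.

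**Figure D1:**
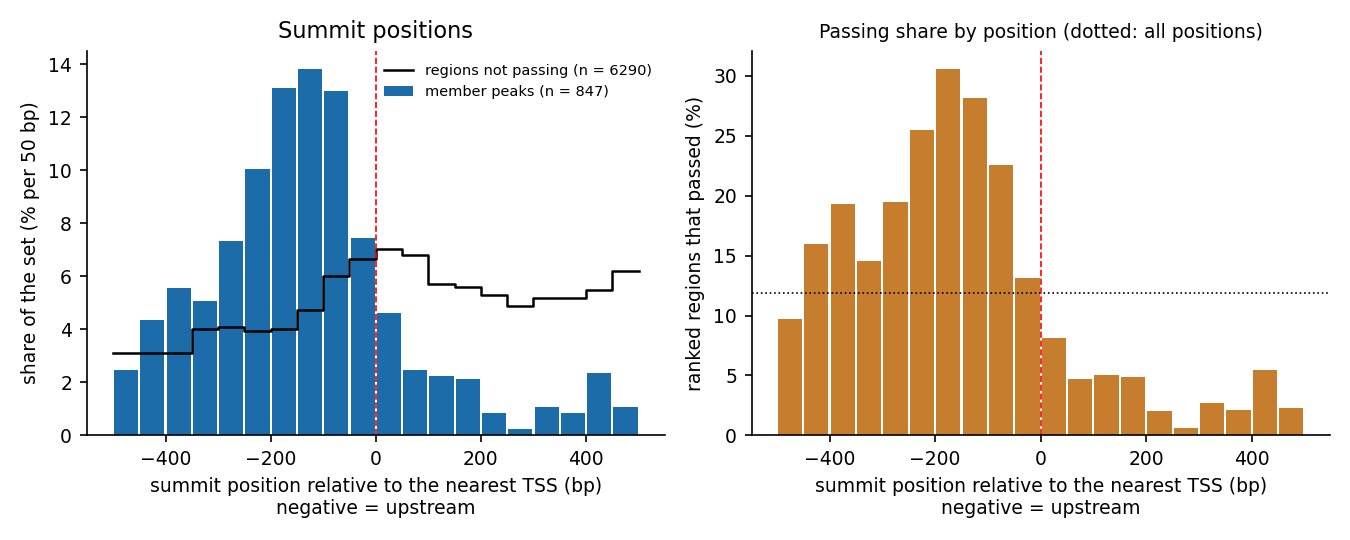
Left, share of member peaks (blue bars, n = 847) and of ranked regions that did not pass (black line, n = 6290) in steps of 50 bp around the nearest TSS, with negative positions upstream and the red dashed line at the start. Right, percentage of ranked regions in each step that passed, with 11.9% over all positions as the dotted line; the highest bar, 30.6%, is 200 to 150 bp upstream.

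The same position was seen when each replicate was taken alone. By the same rule, replicates 1, 2 and 3 had 582, 575 and 575 peaks in the authors' thresholded lists. Their summits were upstream in 79.6%, 85.7% and 86.4% (mean 83.9% ± 3.79, SD, n = 3). In the ranked regions of the same replicates that were not thresholded the shares were 44.4%, 44.5% and 44.2% (mean 44.4% ± 0.155, SD, n = 3). Every thresholded share was above every other share, and the groups did not overlap. The differences were 35.1, 41.3 and 42.2 percentage points (mean 39.5 ± 3.85, SD, n = 3; exact sign-flip permutation test over replicates, two-sided, p = 0.25). With 3 replicates 0.25 is the smallest p this test allows, so it cannot reach 0.05. Median offsets were -136, -160 and -140 bp.

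The upstream share hardly varied with chromosome or strand. It was 81.8% on 2L (192 peaks), 83.6% on 2R (207), 81.1% on 3L (217) and 82.0% on 3R (228), and all 3 peaks on chromosome 4 were upstream. It was 83.1% for genes on the plus strand and 81.4% for genes on the minus strand. It was higher in recurrent peaks, going from 68.9% (interval 60.8 to 76.3) of the 148 peaks found in no replicate's thresholded list to 87.9% (84.1 to 91.0) of the 379 found in all 3. The one-strand promoter peaks of the X chromosome, which the rule leaves out, were upstream in 81.4% with a median offset of -161 bp.

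Recurrence between replicates was partial. Of the 847 peaks, 379 (44.7%) overlapped a thresholded peak in each of the 3 replicates, 160 in 2, 160 in 1 and 148 (17.5%) in none. Thresholded peaks covered 490 of them in replicate 1, 569 in replicate 2 and 558 in replicate 3. The ranked list behind the conservative one records the pair of peaks matched at each region. Of the first peaks 63.4% were identical in position and signal to a peak of replicate 2 and of the second peaks 66.2% to one of replicate 3, with 0% for replicate 1, so by this match the threshold compared replicates 2 and 3 and not replicate 1. A ranked region covered the summit of 777, 778 and 779 members in replicates 1, 2 and 3, at median ranks of 1709 of 49504, 1688.5 of 48710 and 1548 of 46992. Of the upstream members 47.8% (44.1 to 51.6) recurred in all 3 replicates, against 30.2% (23.0 to 38.3) of the downstream members.

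Signal is the authors' own peak height, on an unstated scale, and it was compared only within a list. In the conservative list it ran from 2.06 to 1981 with a median of 139, at 148 for upstream and 112 for downstream members. In the replicate lists the median log2 signal of upstream peaks exceeded that of downstream peaks by 0.37, 0.44 and 0.35 (replicates 1 to 3; mean 0.39 ± 0.05, SD, n = 3; exact sign-flip permutation test, two-sided, p = 0.25, the smallest it allows). The difference was positive in 3 of 3 replicates.

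The lowest signals belonged to rows that share a replicate peak with a stronger row. In 72 members (8.50%) the matching replicate peak was shared with a stronger row of the conservative list, and these rows had a median signal of 19.5 against 151 in the other 775. Of the 65 members with a signal under 50, 64 were such rows. A ranked region covered the summit of 31, 12 and 14 of the 72 in replicates 1, 2 and 3, against 746, 766 and 765 of the other 775. At papi, which encodes a Tudor-domain protein of the piRNA pathway, the row 309 bp upstream had a signal of 618 and replicate signals of 216, 195 and 206, while a second row 101 bp upstream had a signal of 21.6 and no ranked region of its own in any replicate. Recurrence by overlap still counts that second row as found in 3 replicates, through its neighbour.

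Among the 25 strongest recurrent members, whose signals ran from 733 to 1981, 23 had an upstream summit and 22 lay 250 to 50 bp upstream. CG14100 led with 561 in replicate 1, 733 in replicate 2 and 694 in replicate 3. PNPase, which encodes the mitochondrial polynucleotide phosphorylase, had 497, 614 and 680. For mRpL41, a mitochondrial ribosomal protein gene, the values were 458, 594 and 736, with the summit 129 bp upstream. Replicate 1 had the lowest value at all 3, and at 14 of the 25, although the replicate lists were not put on a common scale. By the match above, replicate 1 was also not part of the threshold that chose the members, which can by itself favour lower values there.

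CG18549 had 507, 495 and 524 in the 3 replicates, the closest agreement among the first 5 genes in the order. At eIF6, the gene of a ribosome biogenesis and translation factor, the values were 331, 546 and 516 at 100 bp upstream. At px (plexus), needed for wing vein patterning, they were 448, 422 and 454 at 202 bp upstream, and at gish, which encodes a casein kinase I, 399, 365 and 489. The replicate ranges of neighbours overlap throughout this order, so the order itself is not resolved by 3 replicates.

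Further down were Fkbp14, a peptidyl-prolyl isomerase gene (400, 338 and 488, 105 bp upstream), RluA-1, of the pseudouridine synthase family (344, 306 and 457, 167 bp upstream), and GstE13, a glutathione S-transferase gene (236, 404 and 366, 85 bp downstream). GstE13 was the other downstream summit among the 25 and, like PNPase, lay between annotated starts. Transcription factor genes among the 25 were Sox14, an HMG-box factor of the ecdysone response (231, 342 and 291, 245 bp upstream), and REPTOR, a factor held back by TORC1 (246, 219 and 271, 160 bp upstream). Also present were Rtnl1, the reticulon of the endoplasmic reticulum (241, 266 and 313), PAN3, a subunit of a poly(A) deadenylase (273, 261 and 270), osp (205, 234 and 343), the tyrosine kinase gene Btk (245, 240 and 272) and the prohormone convertase gene amon (219, 273 and 245). The remaining genes, CG1635, CG1888, Tina-1, CG31145, CG46429, CG13921, CG1142 and CG17726, all had upstream summits, between 106 and 227 bp from the start.

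**Figure D2:**
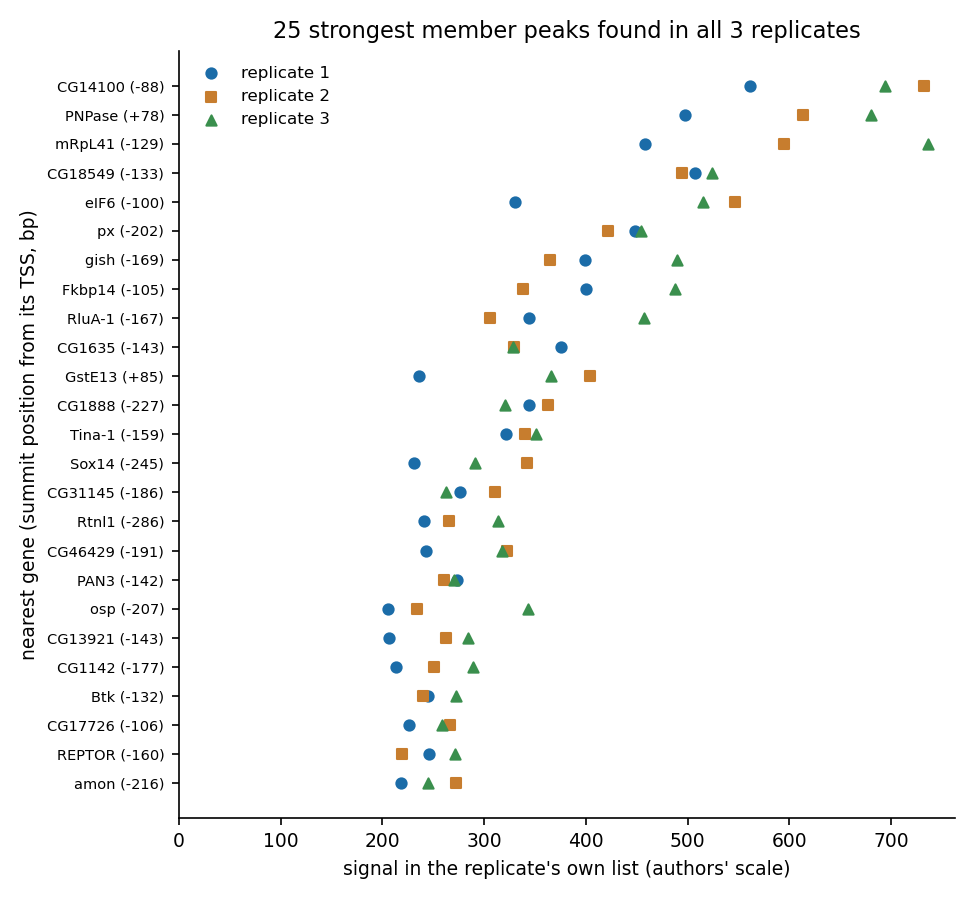
Signal of the 25 strongest recurrent member peaks in replicate 1 (circles), replicate 2 (squares) and replicate 3 (triangles), each from that replicate's own list on the authors' scale; the position of the summit from the nearest TSS stands in brackets after the gene. The 3 replicates of PAN3 lie between 261 and 273, while those of mRpL41 spread from 458 to 736.

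Several genes carried more than 1 member. The 847 peaks had 754 distinct nearest genes, 87 genes were nearest to at least 2, and 6 were nearest to 3. At Rtnl1 the 3 peaks lay at separate starts, 286, 228 and 214 bp upstream of them, with signals of 827, 405 and 148, and each recurred in 3 replicates. At Fkbp14 the other rows lay 415 and 208 bp downstream with signals of 103 and 4.15, the last a weaker row of a shared peak. At Dp, the gene of an E2F partner in cell cycle control, a peak 207 bp upstream (118, 166 and 121 in the replicates) and one 405 bp downstream (71.6, 133 and 64.2) both recurred. The member with most genes lay 163 bp upstream of the nearest start of CG42837, with CG44242 and Lipt1, a lipoyltransferase gene, also within 500 bp, and had 57.2, 67.6 and 80.0. A peak at CG46429 also had Sesn, the sestrin gene, in reach (243, 323 and 317), one with a signal of 723 had CG44286 and CG8788, and one with a signal of 448 had Cyp6u1 and Ufsp1.

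The summits lay on DNA poor in G and C. Within 50 bp of the summit (101 bp), GC content averaged 34.8% ± 10.5 (SD over the 847 members), against 46.3% ± 10.2 in the 6290 regions that had not passed. Under 40% GC were 72.6% of the members and 27.5% of the background. In the replicate lists the thresholded peaks averaged 35.2%, 33.0% and 34.1% (mean 34.1% ± 1.14, SD, n = 3) and the other ranked regions 45.4%, 45.5% and 46.2% (mean 45.7% ± 0.478, SD, n = 3). The groups did not overlap, and the difference was -10.1, -12.5 and -12.1 percentage points.

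Upstream flanks of fly genes are AT-rich in general, so position and composition were set side by side. Upstream members averaged 33.2% GC and downstream members 42.5%, while upstream regions that had not passed averaged 43.0% and downstream ones 48.8%. From 200 to 150 bp upstream, members had 30.5% and the others 41.2%. In the 50 bp past the start the values were 45.8% and 47.1%, on 39 members. Centred on the start, promoters with a member were lower than other promoters from 500 to about 100 bp upstream and slightly higher just around the start.

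**Figure D3:**
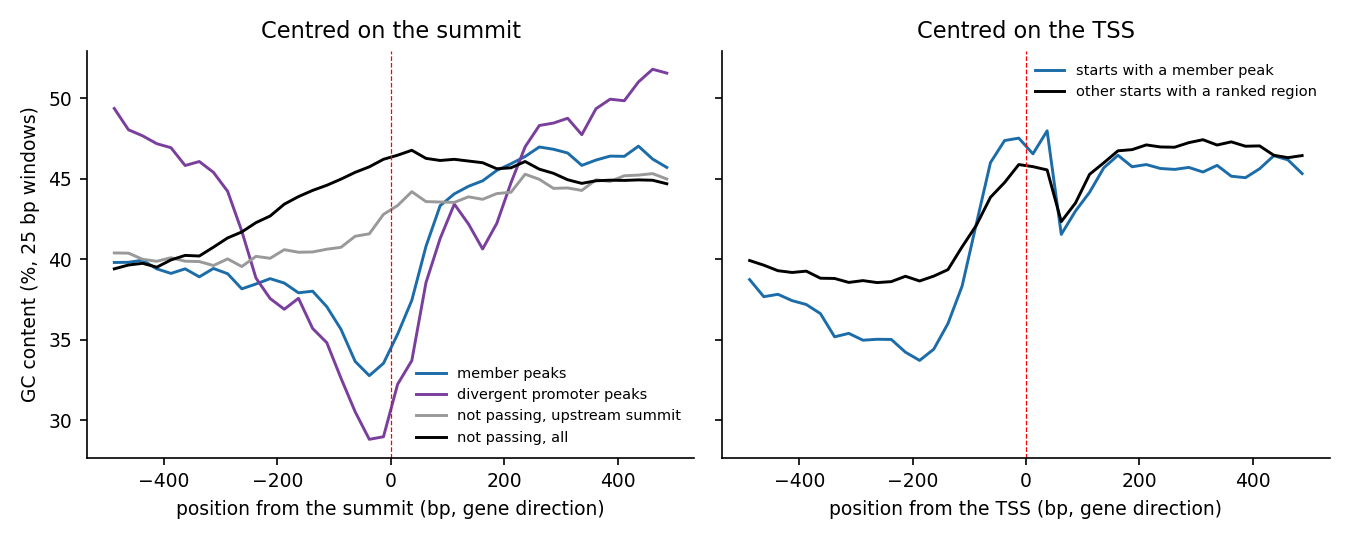
Mean GC content in 25 bp windows, in the direction of the gene, centred on the summit (left: members blue, divergent promoter peaks purple, regions that did not pass with an upstream summit grey, all regions that did not pass black) and on the TSS (right: starts with a member blue, other starts with a ranked region black). The member curve dips below 35% close to the summit, while the black curve on the left lies above 45% there.

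Both measures moved with passing, each within levels of the other. Among regions with an upstream summit, 47.5% of those under 30% GC passed (interval 43.5 to 51.4), 19.2% of those from 35 to 40% and 6.63% of those at 50% or more (4.98 to 8.63). With a downstream summit the shares were 21.3% (14.4 to 29.6), 5.45% and 2.02% (1.41 to 2.79). The upstream share was the higher one in each of 6 GC bands, although the intervals overlapped from 45 to 50% GC. These are shares of regions and not of replicates, and no test was run on them. How GC content affects recovery and sequencing of fragments was not tested.

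**Figure D4:**
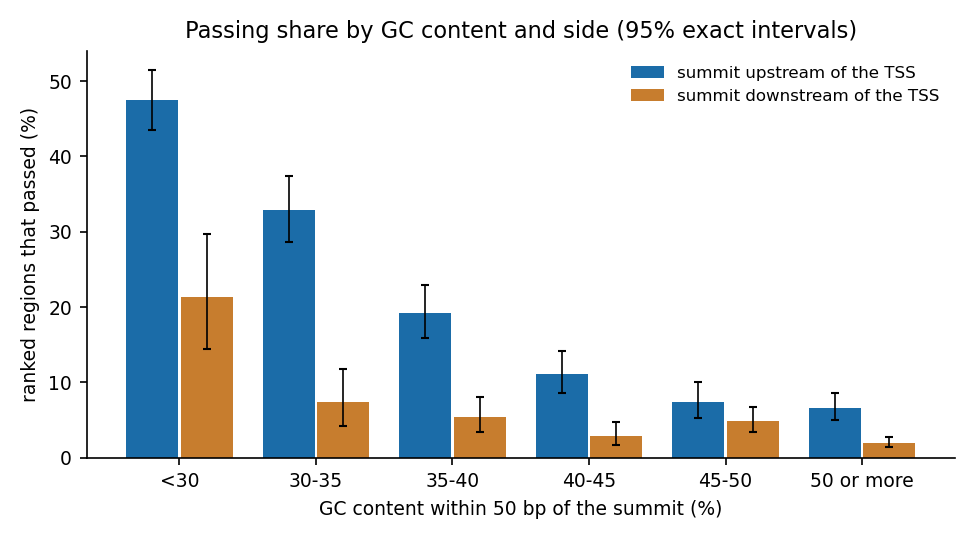
Percentage of ranked autosomal one-strand promoter regions that passed into the conservative list, by GC content within 50 bp of the summit and by side of the summit (blue upstream, orange downstream); error bars are 95% exact binomial intervals. Bars go from 47.5% to 6.63% upstream and from 21.3% to 2.02% downstream.

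Short promoter words were counted on both strands within 50 bp of the summit. The TATA box word TATAAA was in 21.1% of members (18.4 to 24.0), 9.55% of the 6290 background regions and 13.7% of the background regions with an upstream summit. At the place where a TATA box works, 45 to 16 bp upstream of the start on the gene's strand, the order was the opposite: the word was in 3.32% of the 783 starts with a member (2.18 to 4.83) and 8.49% of 4655 other starts. The AT-only word ATATTA was in 18.4% of members and 6.76% of the background, and AATAGT in 8.38% and 4.66%. TATAAA and ATATTA are built of A and T, so their counts and the GC content are not independent measures, and they may overlap each other.

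Among the words that hold G or C, the DRE (TATCGATA, bound by the factor DREF) was in 2.60% of members (1.63 to 3.91), 0.684% of the background and 1.27% of the upstream background. CGATA, which the DRE contains and the insulator protein BEAF-32 binds, was in 15.8%, 13.0% and 15.2%. In the same order, the Motif 1 core GGTCACAC was in 1.18% (0.568 to 2.16), 0.843% and 1.41%. The initiator core TCAGT was in 16.8%, 18.5% and 19.1%. Lower in members than in the background were GAGAG, bound by the GAGA factor (9.56% and 13.8%), the Pho core GCCAT (13.7% and 19.3%) and the E-box CAGCTG (3.66% and 5.93%). The Zelda word CAGGTA was in 1.65% (0.907 to 2.76) and 2.61%, and within 100 bp in 3.07% (2.01 to 4.47) and 5.39%. Its background lay inside the interval of the members only at 50 bp. These words hold G and C, and GC content was 34.8% in members and 46.3% in the background. Their counts and the GC content are therefore not independent measures. Within 100 bp the shares for GAGAG were 24.7% (21.8 to 27.7) and 25.8%, and for the E-box 10.2% (8.20 to 12.4) and 11.5%, with the background inside the interval of the members. ACAGTG was in 8.50% of members (6.71 to 10.6) and 5.04% of the background, and within 100 bp in 20.2% and 9.84%, but within 50 bp it was in 5.80% of the members found in all 3 replicates. The CTCF core GGTGGCGC was in 0.590% and 0.445%. The DRE and Motif 1 were also counted around the starts themselves, from 150 bp upstream to 50 bp downstream. There the DRE was at 6.0% of member starts (4.44 to 7.90) and 4.66% of others. Motif 1 was at 5.87% (4.33 to 7.76) and 4.49%. For both words the share of other starts lay inside the interval of the member starts. A word is a description of the letters and not a mapped site.

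For 3 of the words, the strongest recurrent member on arms 2L, 3L, 3R and 4 that holds it is shown, with the word in capitals on either strand. eEF1gamma (chr3R:29220035-29220235, plus strand), a translation elongation factor gene, had its summit 37 bp upstream, within the DRE. CG18622 (chr3R:16986566-16986766, minus strand) had its summit 184 bp downstream of the nearest start and, like PNPase, between annotated starts of the gene. It had ACAGTG on both strands, with the copy on the opposite strand more than 50 bp from the summit. RpL30 (chr2L:19009214-19009414, minus strand), a ribosomal protein gene, had its summit 8 bp upstream and the Motif 1 core.
eEF1gamma: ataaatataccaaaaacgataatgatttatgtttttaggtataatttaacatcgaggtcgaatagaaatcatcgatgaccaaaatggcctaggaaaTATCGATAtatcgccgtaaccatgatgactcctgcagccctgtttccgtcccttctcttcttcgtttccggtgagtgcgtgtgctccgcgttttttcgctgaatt
CG18622: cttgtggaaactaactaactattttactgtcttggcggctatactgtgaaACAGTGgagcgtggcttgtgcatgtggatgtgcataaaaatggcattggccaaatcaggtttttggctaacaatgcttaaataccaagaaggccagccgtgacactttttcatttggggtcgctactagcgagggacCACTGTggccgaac
RpL30: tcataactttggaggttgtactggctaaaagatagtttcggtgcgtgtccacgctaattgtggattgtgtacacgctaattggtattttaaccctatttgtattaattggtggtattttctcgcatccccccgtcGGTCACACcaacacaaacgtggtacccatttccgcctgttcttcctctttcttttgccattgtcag

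By annotation, 385 summits (45.5%) were intergenic, 281 (33.2%) in introns and 116 (13.7%) in 5′ UTRs. Coding exons held 18 (2.13%), 3′ UTRs 22 (2.60%) and noncoding exons 25 (2.95%). Of the background regions 22.2% were intergenic, 21.8% in introns, 25.2% in 5′ UTRs and 26.9% in coding exons. Annotation and side of the start are not independent measures. Summits were upstream in 82.2% of members and 42.7% of the background, and in all intergenic members. Background regions of the same side were not annotated separately. A summit in an intron can lie upstream of its start where that start is inside a longer transcript of the same or another gene, and 279 members (32.9%) were at a start that was not the gene's most upstream one, against 30.5% of the background.

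The gene next upstream was on the same strand for 417 members (49.2%) and on the opposite strand for 336 (39.7%), and for 94 (11.1%) the start lay inside another coding gene. The background had 46.3%, 40.6% and 13.0%. The median gap to that gene was 1293 bp for members and 1572 bp for the background. A transcript end within 200 bp of the summit was found for 91 members (10.7%) and 7.12% of the background, but for summits upstream of the start the shares were 11.9% and 11.6%.

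Ribosomal protein genes had the highest share of the 20 gene lists, ahead of short lists whose intervals overlap theirs. Of 4663 autosomal coding genes with a one-strand ranked region, 779 had a member (16.7%), and the list shares below are read against that figure. Cytosolic ribosomal protein genes had a member at 21 of 33 (63.6%, interval 45.1 to 79.6), and translation factor genes at 8 of 23 (34.8%, 16.4 to 57.3, which includes 16.7%). These lists were drawn up with earlier results of these data known, so the counts are a description.

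At ribosomal protein genes the summit lay closer to the start. The 22 peaks had a median offset of -24.5 bp against -147 bp for the other 825 members, 17 of them (77.3%) lay within 50 bp of the start against 10.3% of the others, and 13 (59.1%) were upstream against 82.8%. In the replicate lists the median offsets of such peaks were -12, -9 and -25 bp (19, 13 and 17 peaks), against -142, -164 and -144 bp for all other peaks, without overlap between the groups. Their mean GC content was 44.1%, against 34.6% in the other members. RpL23A had the highest signal (115, 100 and 186 in the 3 replicates, 78 bp upstream), followed by RpL24 (93.1, 81.1 and 97.9, 37 bp upstream). RpL27A had its summit at the start (55.7, 42.8 and 88.5), and RpS4 17 bp downstream (89.9, 63.2 and 101).

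Among translation factors, eEF1gamma had 138, 121 and 172, and eIF6 is given above. Other lists of translation and energy metabolism were below 16.7%, with intervals that include it: mitochondrial ribosomal proteins at 2 of 14 (mRpL41, and mRpL4 with 41.8, 42.4 and 29.7), oxidative phosphorylation at 1 of 19 (ND-B17, a complex I subunit, 35.1, 39.2 and 29.1), aminoacyl-tRNA synthetases at 1 of 8 (AlaRS, 37.4, 29.0 and 42.1). Proteasome genes had none of 11, which allows a share of up to 27.3% by the limit of 3 counts of the total used for counts of 0, and 28.5% by the exact interval.

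For genes of transcription and chromatin, RNA polymerase II and basal factors had 4 of 9, led by Taf4, a TFIID subunit (44.7, 70.1 and 38.9, 122 bp upstream), and Polr2E, a polymerase subunit (41.6, 32.7 and 41.6, in no replicate's thresholded list). Mediator had 1 of 8 (MED4), splicing factors 1 of 7 (B52, an SR protein, 9.22, 28.2 and 39.1). Insulator and interband proteins had 3 of 5, among them Trl, which encodes the GAGA factor (88.9, 115 and 144, 146 bp downstream), and BEAF-32 (46.1, 51.3 and 85.5, 59 bp upstream). Trl was also the 1 of 11 Polycomb and Trithorax genes. Intervals for these short lists all include 16.7%.

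Of genes of growth, signalling and stress, cell cycle and replication had 4 of 12, signalling pathways 5 of 19, heat shock proteins and chaperones 3 of 11, and vesicle traffic 4 of 19. The intervals of all these lists include 16.7%. numb, an inhibitor of Notch signalling, had 118, 151 and 124, and spi, an EGF receptor ligand, 72.1, 142 and 121. Hsp27 had 192, 267 and 184 and Hsp83, the fly Hsp90, 128, 111 and 156. Rab5, the early endosome GTPase, had 63.3, 113 and 93.7 at 290 bp upstream, and Sec13, a coat subunit, 33.0, 41.3 and 74.1 at 478 bp downstream.

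The patterning, muscle and neuronal lists had few genes, and their intervals include 16.7%. Segmentation and Hox genes had 3 of 17 (interval 3.80 to 43.4; cad with 50.8, 33.4 and 56.8, and bcd with 17.2, 37.2 and 61.2), muscle and heart genes 2 of 10 (interval 2.52 to 55.6; the heart factor gene tin with 150, 132 and 236, and sls, the fly titin, with 82.9, 128 and 121), and neuronal genes 1 of 8 (interval 0.316 to 52.7; scrt). Cuticle protein genes had none of 52, which allows a share of up to 5.77% by the limit of 3 counts, and chemosensory receptor genes none of 48, up to 6.25%. The upper ends of the exact intervals were 6.85% and 7.40%, also below 16.7%.

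**Figure D5:**
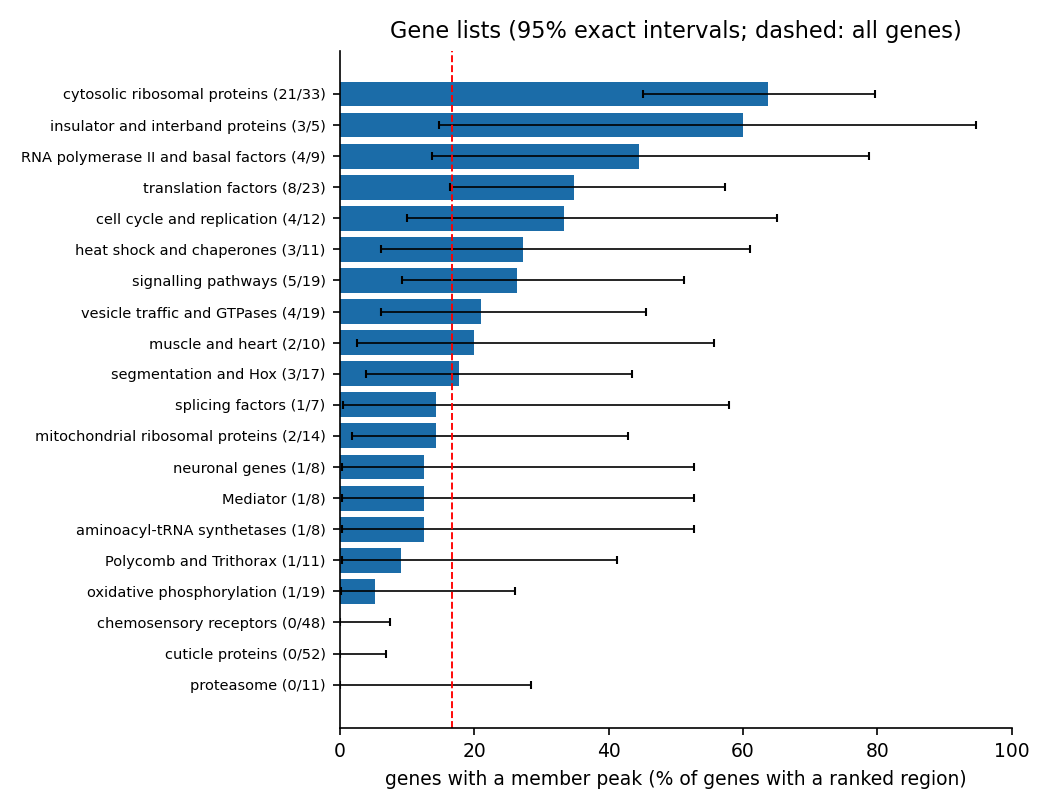
Percentage of genes in each list that have a member peak, among autosomal genes with a one-strand ranked region at the promoter; counts stand in brackets, lines are 95% exact binomial intervals, and the dashed line is the 16.7% over all genes. Cytosolic ribosomal proteins (21 of 33) lie to the right of the line, and cuticle proteins (0 of 52) and chemosensory receptors (0 of 48) to its left.

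Peaks at divergent promoters are the nearest set for comparison. In the replicate lists the median log2 signal of one-strand promoter peaks minus that of divergent promoter peaks was -0.12, -0.06 and -0.02 (mean -0.07 ± 0.05, SD, n = 3; exact sign-flip permutation test, two-sided, p = 0.25, the smallest it allows), and it was negative in 3 of 3 replicates. Its size depended on the setting: with a distance of 200 bp it was -0.41, -0.33 and -0.26 (mean -0.33), over the ranked lists -0.44, -0.78 and -0.67 (mean -0.63), without replicate 1 a mean of -0.04, and with 1000 bp 0.02, -0.04 and -0.03 (mean -0.02), where replicate 1 had the opposite sign and the exact p was 0.5. In the conservative list the medians were 139 for members and 149 for divergent peaks, and 44.7% and 45.7% recurred in all 3 replicates. Measured from the nearest start on either strand, 82.2% of members and 82.0% of divergent peaks had an upstream summit. The upstream position was thus not particular to one-strand promoters. GC content was 34.8% and 31.0%, and intergenic summits made up 45.5% and 65.9%. Within 50 bp TATAAA was in 21.1% of members and 27.3% of divergent peaks, ATATTA in 18.4% and 26.5%. GAGAG was in 9.56% and 5.01%, and ACAGTG in 8.50% and 6.61%. Within 50 bp of the summit the DRE was in 2.60% (1.63 to 3.91) and 3.21%, and CGATA in 15.8% and 22.0%. Within 100 bp the DRE was in 4.13% of members (2.89 to 5.70) and 10.02% of divergent peaks. CGATA was there in 28.5% (25.4 to 31.6) and 42.7%. For the DRE the divergent share thus lay inside the interval of the members at 50 bp and above it at 100 bp.

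At the edge of the rule, the members farthest from a start were CG10479 (494 bp, signal 368), CG33725 (494 bp, 163) and CG31612 (493 bp, 578). Just outside were peaks near ush (501 bp, 104), GATAe (501 bp, 99.8) and E(spl)m3-HLH (503 bp, 167).

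For 678 members (80.0%) the summit coincided with the centre of the peak (tolerance 1 bp), and the median width of these peaks was 330 bp. Whether the edges or the summit were set first was not given in the sources used here. The 169 members with a summit elsewhere were upstream in 89.3%, with a median offset of -159 bp. They were also stronger (median signal 396 against 120), and 97.6% of them recurred in all 3 replicates against 31.6%.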

How the data were processed

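ChIP-seq peak lists of 3 biological replicates (1 group) were used. Per the labels, chromatin was sonicated, fragments of 200 to 800 bp were kept and coordinates are on dm6; the labels' antibody field names CG14050 and the description an anti-GFP antibody. The aligner and peak caller were not given in the sources used here. The deposited lists hold a signal per peak, the authors' own peak height, and a deposited −log10 irreproducible discovery rate (IDR), as well as the authors' deposited scores. Read depth was not used here; the ranked lists held 46992 to 49504 regions.

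Starts were all transcript starts of protein-coding genes in Ensembl BDGP6.54 (release 115), and sequence was from RefSeq; no peak ended past an arm of the reference. Summits were the peak start plus the deposited summit offset. Each was assigned to the nearest start, and a tie between equally near starts went to the more upstream one. Overlap was at least 1 bp. Analyses were run in Python 3.11.15 with scipy 1.17.1. Classing was tested on 400 simulated summits around isolated autosomal starts, all recovered. Divergent promoters and the choice between several starts were not part of that test. Named genes were the 25 strongest members in all 3 replicate lists, the 2 strongest in each of 20 gene lists, 3 on each side of the distance limit and the 4 with the most genes; a few others (papi, RpL27A, RpS4, Rtnl1 and Fkbp14 repeats, chromosome 4) were chosen after their values were seen. The members, the lists and the 13 words were chosen with earlier results of these data known. The sequence of 1 further member is not reported here.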

Additional observations from a re-analysis of the deposited data

How the results depend on the processing

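Under a limit of 200 bp the median offset was -93 bp, and under 1000 bp it was -156 bp with 75.6% of summits upstream. With the most upstream start of each gene as the only start, 77.1% were upstream and the median was -124 bp. Of members with a signal above the list median there were 448, with 87.3% upstream and a median of -159 bp; with the summit away from the midpoint there were 169, with 89.3% and -159 bp. Without each replicate in turn, members found in both others numbered 420 to 455, with 86.3 to 88.1% upstream and medians of -159.5 to -158.5 bp; found in all 3, an alternative chosen after seeing the data, they numbered 379, with 87.9% and -162 bp. The share found in every replicate was 41.0% when the overlap had to cover the larger part of the member, and 49.6 to 53.7% without each replicate in turn. These counts differ because fewer peaks enter; the cause of the other shifts was not tested. Of the alternatives for counts, shares and offsets 27 moved by more than the error of the value and 23 did not, and of the word shares 17 moved. The mean difference within replicates kept its sign under all 19 alternatives, and every replicate kept it under 18; the exception was one-strand minus divergent signal at 1000 bp, where replicate 1 was at 0.02. The size of that difference moved from -0.07 to between -0.63 and -0.02. With 2 replicates the smallest p is 0.5. No paired analysis was possible because there was only 1 group to pair across; the differences tested were taken within each replicate. Depth is known only as the number of ranked regions, and p-values over 3 replicates cannot reach 0.05.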

Other observations

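The 3 members on chromosome 4 all recurred in 3 replicates and all lay upstream. They were at PlexA, a semaphorin receptor gene (75.8, 126 and 128 in the 3 replicates, 160 bp upstream), Sox102F (51.0, 67.1 and 63.0, 249 bp upstream) and gw, which encodes the GW182 protein of microRNA silencing (41.7, 40.2 and 48.1, 166 bp upstream). For 730 members a ranked region covered the summit in all 3 replicates. The signal was lowest in replicate 1 at 415 of them, in replicate 2 at 211 and in replicate 3 at 104. Signals of different lists were not put on a common scale. By the match above, members had passed a threshold on replicates 2 and 3 and not replicate 1. Such a selection can by itself favour lower values in replicate 1, so these counts cannot show that it was weaker. Median ranks of members were at 3.45%, 3.47% and 3.29% of the ranked lists of replicates 1, 2 and 3.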
